A study of Mus musculus with 9 samples.

Results

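Collagen chain genes encode the polypeptides that assemble into collagen triple helices. All genes whose symbol consists of Col, a type number, the letter a and a chain number were taken as members, which gave 44 genes of the 32285 in the deposited count tables. They were measured by droplet single-nucleus RNA sequencing in epididymal adipose tissue (epiAT), a visceral fat depot beside the testis, of male C57BL/6J mice. Each of 9 diet groups had 1 library made from a pool of 5 mice. C, CC and CCC mice ate chow until 18, 26 and 39 weeks of age, a control diet that the series description calls low-fat, and by the methods of the study CC and CCC had been moved to a standard chow. The H group was collected at 18 weeks of age after 12 weeks on a high-fat diet (HFD), and the HH group at 31 weeks after 25 weeks on it. HC mice lost weight (WL) on chow for 8 weeks after 12 weeks of HFD and were 26 weeks old, and HHC mice did so after 25 weeks of HFD and were 39 weeks old. CCH mice ate HFD for the first time for 4 weeks after chow, HCH mice ate it again for 4 weeks after 12 weeks of HFD and 8 weeks of chow, and both were 30 weeks old. The libraries carry 2 set codes: C, H, HH, CCH and HCH are in S075, and CC, CCC, HC and HHC are in S019. The codes are called sequencing sets here, although the labels do not say which step they stand for.

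Collagens are the main structural proteins of the extracellular matrix. Fibrillar collagens (types I, III, V and minor types) form the fibres of the interstitium, type IV forms the sheet of basement membranes, such as those around each adipocyte and vessel, and type VI forms beaded filaments between them. Other families coat fibrils (the fibril-associated or FACIT collagens), form short-chain networks (types VIII and X), carry large interruptions and glycan chains (the multiplexins XV and XVIII) or span the plasma membrane. In adipose tissue, stromal progenitor cells are known as the main source of fibrillar collagen, and adipocytes make type IV and type VI collagen of their own. In these nuclei, 40 of the 44 members had at least 100 unique molecular identifiers (UMIs, which count captured RNA molecules) over all libraries. The other 4, Col2a1, Col9a1, Col9a2 and Col17a1, had between 3 and 84. The members held 653101 of 214960399 UMIs in the nuclei that were kept.

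Total UMIs per library ranged from 22599619 (CCC) to 66615262 (HHC), and 4144 (CC) to 13330 (HH) nuclei were kept per library. Between 8 and 55 cell barcodes were shared by a pair of libraries, at most 0.493% of a library. Clusters of nuclei were named from marker lists that held no collagen gene, and between 0.895% (H) and 29.6% (CCC) of nuclei stayed unnamed. Clusters named progenitor-like carried between 5 and 10 of the 10 progenitor markers, among them Pdgfra and Dcn. They held 654 (CCC) to 3321 (HH) nuclei per library and fell into adipocyte progenitor-like (APC-like) and fibro-inflammatory progenitor-like (FIP-like, Dpp4 and Pi16) clusters.

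The sequence just upstream of the RefSeq start is shown for 5 members whose progenitor levels carry the results that follow. Col3a1 and Col8a1 had, in that order, the highest level and the largest change among the chains called higher in obesity and detected in chow, Col27a1 and Col24a1 passed the test in obesity and after WL, and Col4a6 was the basement membrane chain that fell the most. Each stretch is the 120 bases before the start, 5′ to 3′ on the strand of the gene (GRCm38.p6), and none overlaps an annotated exon. Capitals mark the letters of a TATA box (TATAAA), the letters of the promoter box named CCAAT, or those of the GC box (GGGCGG, written CCGCCC where it lies on the other strand).
Col3a1 (chr1:45311418-45311537, plus strand): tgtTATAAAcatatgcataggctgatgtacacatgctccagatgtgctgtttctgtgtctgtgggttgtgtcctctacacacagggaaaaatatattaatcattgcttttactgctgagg
Col8a1 (chr16:57754738-57754857, minus strand): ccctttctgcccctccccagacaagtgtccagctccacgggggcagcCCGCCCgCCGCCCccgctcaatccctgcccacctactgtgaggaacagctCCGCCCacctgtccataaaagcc
Col27a1 (chr4:63215292-63215411, plus strand): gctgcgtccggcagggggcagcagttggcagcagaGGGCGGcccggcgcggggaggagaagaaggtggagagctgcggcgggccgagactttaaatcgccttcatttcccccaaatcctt
Col24a1 (chr3:145292352-145292471, plus strand): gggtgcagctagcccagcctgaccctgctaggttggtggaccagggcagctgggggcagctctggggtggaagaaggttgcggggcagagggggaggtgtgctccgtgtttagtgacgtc
Col4a6 (chrX:141474077-141474196, minus strand): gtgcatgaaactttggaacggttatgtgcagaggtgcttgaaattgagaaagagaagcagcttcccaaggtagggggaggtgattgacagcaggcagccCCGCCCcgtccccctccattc

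The GC box letters were present 3 times upstream of Col8a1, 73, 66 and 23 bases before its start, and once each in Col27a1 (85 bases) and Col4a6 (21 bases). The TATA box letters lay 117 bases before the start of Col3a1, and none of the 3 motifs was found in the stretch of Col24a1. RefSeq promoters were matched for 35 of the 44 members (38 promoters). Over that 120-base window and both strands, GGGCGG was present in 18 of these 38 promoters (47.4%) and in 26.5% of all 32851 promoters, CCAAT in 15.8% and 21.3%, and TATAAA in 7.89% and 6.34%. These are descriptions of letters, not of binding. Some chain genes of type IV lie head to head: the starts of Col4a6 and Col4a5 are 1343 bases apart on chromosome X, and those of Col4a1 and Col4a2 are 21 bases apart on chromosome 8.

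Levels are given as CPM: the UMIs of a gene over all UMIs of a class in a library, without mitochondrial genes and Malat1, scaled to a common total. Progenitor-like nuclei, 11.3% to 27.1% of the nuclei of a library, held 26.4% (CCC) to 67.2% (H) of its collagen UMIs. Per kb of gene, which matters because intronic reads were counted, the chains with the highest mean level in progenitor-like nuclei were Col3a1 (28.9 CPM per kb), the type I chains Col1a2 (13.5) and Col1a1 (8.14), Col5a2 (6.81), and the type VI chains Col6a1 (6.00) and Col6a2 (4.99). In adipocyte-like nuclei the basement membrane chain Col4a1 (4.28) and the minor fibrillar chain Col5a3 (4.23) led, and both were above the level of lymphocyte-like nuclei, taken as background since lymphocytes should lack collagen, in 9 of 9 libraries. Col3a1 stood at 4.63 there, but its mean of 177 CPM was below the 297 CPM of lymphocyte-like nuclei. It was above them in 3 of 9 libraries only, so it is read as background. Here and below these words mean only that the CPM does not stand above that of lymphocyte-like nuclei in most libraries. CPM takes no account of depth, and adipocyte-like nuclei were deeper (in C, 13036999 UMIs in 2989 nuclei beside 279965 in 202 T or NK-like nuclei). The part of depth was not tested. Mesothelial-like nuclei, from the lining of the fat pad, held the highest Col3a1 level per kb among 4 classes at 48.5 CPM per kb, above the lymphocyte-like level in 9 of 9 libraries. In endothelial-like nuclei Col3a1 (8.35) and Col1a2 (4.47) were near background, with means of 319 and 164 CPM beside 297 and 142 CPM in lymphocyte-like nuclei and higher values in 6 and 5 of 9 libraries.

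**Figure D1:**
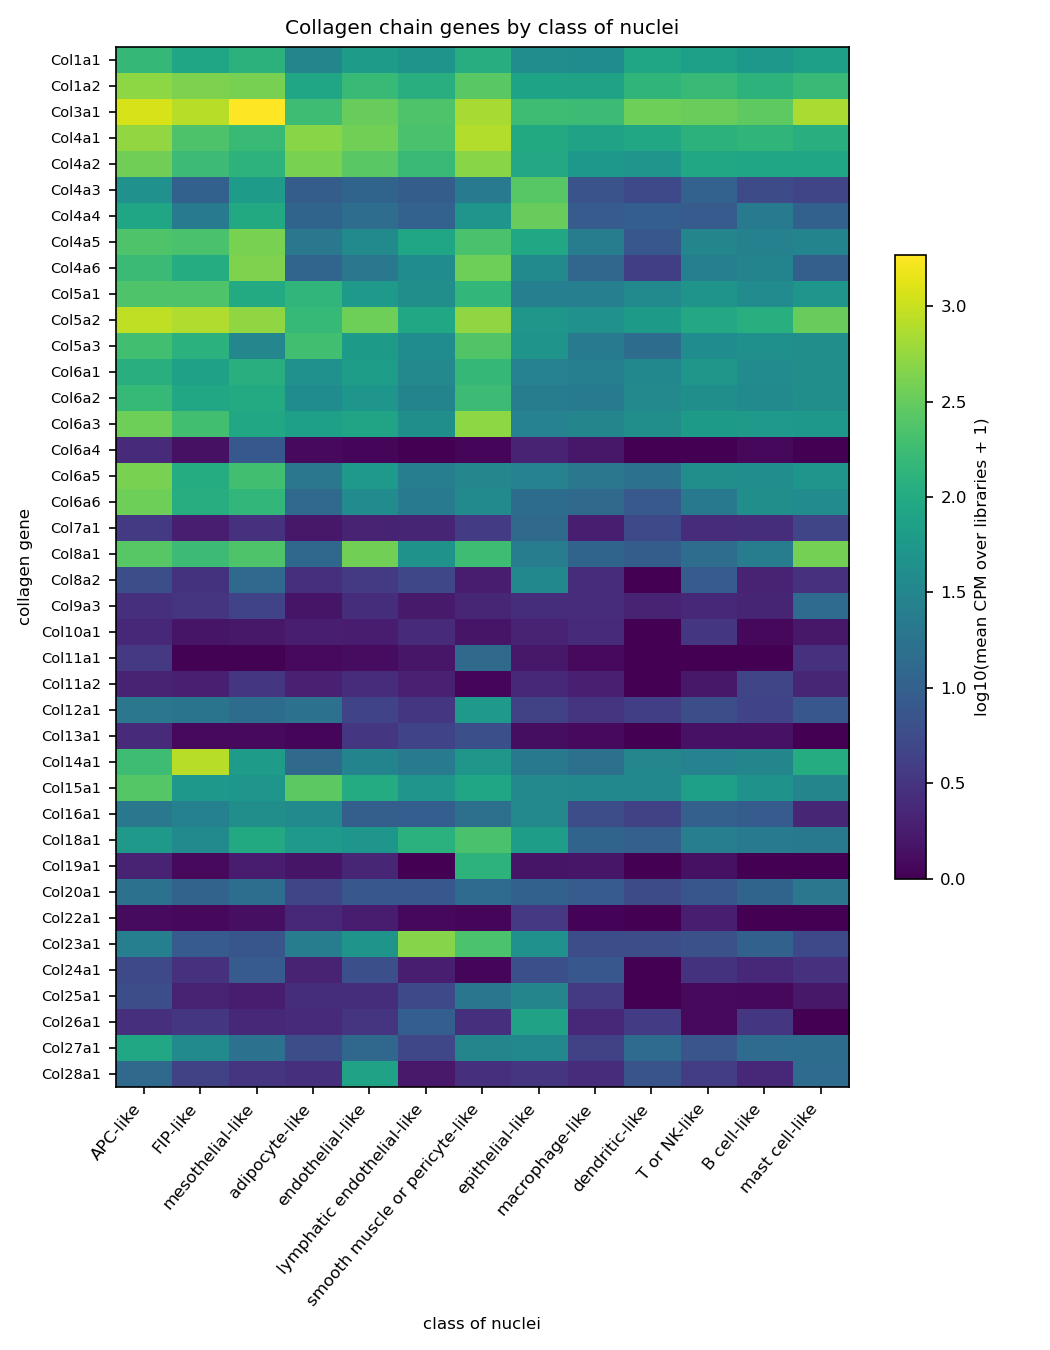
Mean level of each of the 40 collagen chain genes with at least 100 UMIs (rows, in order of type and chain number) in 13 cell classes (columns), as log10 of the mean CPM over libraries plus 1. Col1a1, Col1a2, Col3a1 and Col5a2 are high in progenitor-like and mesothelial-like nuclei, and Col4a3, Col14a1, Col19a1, Col26a1 and Col28a1 stand out in a single class each, Col26a1 through the HC library.

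Of the 31 chains with at least 100 UMIs in their highest class, 5 had a mean CPM there at least 4 times that of every other class. These levels are descriptions without a test, since the same nuclei were clustered. Col14a1, a fibril-associated chain, reached 831 CPM in FIP-like nuclei, 4.63-fold above APC-like nuclei. Col4a3, a chain of specialised basement membranes, reached 260 CPM in epithelial-like nuclei (4.10-fold over the next class, and 3.87 to 3.96-fold without CCC, H or HH). Col26a1 averaged 76.4 CPM in the same class (8.91-fold), but HC alone was at 422 CPM, and without HC the mean was 33.1 CPM and 3.67-fold over the next class, under the 4-fold line. Col28a1 stood at 74.98 CPM in endothelial-like nuclei (5.82-fold). Col19a1 averaged 129 CPM in smooth muscle or pericyte-like nuclei and was 106-fold above the next class, with 256 of the 293 UMIs of the C library in 1 cluster of 88 nuclei led by Dgkb and Myom1. Without C its mean was 82.4 CPM. Col23a1, a membrane-spanning chain, was highest in lymphatic endothelial-like nuclei at 469 CPM and missed the 4-fold line. Among the same 31 chains, 9 had their highest class mean in smooth muscle or pericyte-like nuclei, 6 each in APC-like and epithelial-like nuclei, and 4 in mesothelial-like nuclei. The smooth muscle or pericyte-like means cover 7 libraries, since CC and HHC had no such nuclei, and CCC had only 25 and H 41. The leads of these 9 chains over the next class went from 1.15-fold (Col6a2) to 106-fold (Col19a1).

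Collagen UMIs of progenitor-like nuclei were higher in the obese libraries. Summed over the 44 chains, they came to 4585 CPM in C (95% interval 4526 to 4644), 4529 in CC and 5842 in CCC, against 10921 in H and 7696 in HH. After WL the sums were 5691 CPM in HC and 5579 in HHC, within the chow range, and they were 6052 in CCH and 7914 in HCH. Intervals of CPM and of ratios here are exact and cover counting error only, since each group has 1 library and a comparison of 2 libraries has no replicate check. H was 2.38-fold above the age-matched C (2.35 to 2.42), HH 1.70-fold above CC (1.67 to 1.73), HC 1.26-fold above CC (1.23 to 1.28), HHC at 0.955 of CCC (0.934 to 0.976, turning to a log2 ratio of 0.18 with nuclei gated on marker UMIs and 0.054 with no upper gene limit), while HCH was 1.31-fold above CCH (1.29 to 1.32). CC was 26 weeks old and HH 31 weeks, so that pair also differed in age, and it came from different sequencing sets. Lymphocyte-like nuclei, which should lack collagen RNA, held summed collagen of 869 (C) to 2637 CPM (HCH), which is 11.9% (H) to 35.0% (CC) of the progenitor value. It was 33.3% in HCH, so that the difference between HCH and CCH came with a difference in background.

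**Figure D2:**
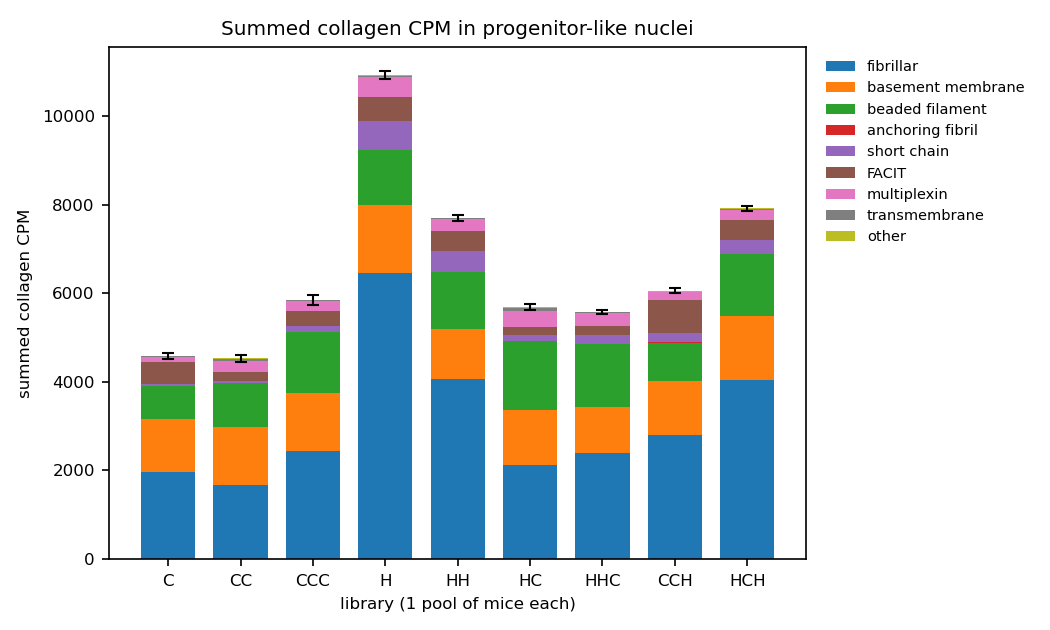
Summed CPM of collagen chain genes in progenitor-like nuclei of each of the 9 libraries, stacked by collagen family, with exact Poisson 95% intervals of the total. H (10921) and HH (7696) rise above the 3 chow libraries (4529 to 5842), HC and HHC lie within the chow range, and most of the added height is in fibrillar chains.

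The families did not move alike. The fibrillar sum was 3.29-fold higher in H than in C and 2.44-fold higher in HH than in CC, while the ratios were smaller for HC with CC (1.28) and HHC with CCC (0.980). The short-chain sum, nearly all Col8a1, showed larger ratios of 13.4 and 8.59 in obesity, 2.71 and 1.61 after WL, and 1.40 for HCH with CCH. The basement membrane sum stayed between 0.797 (HHC with CCC) and 1.29 (H with C) in all 5 pairs. Of members with enough UMIs in a pair, 16 of 31 were at least 2-fold higher in H than in C and 2 were 2-fold lower, where 23.8% and 5.64% of all genes were. For HH with CC these were 12 and 5 of 33 (25.4% and 9.86% of all genes), for HC with CC 4 and 4 of 32 (6.71% and 9.7%), for HHC with CCC 4 and 2 of 32 (14.1% and 3.26%), and for HCH with CCH 6 and 0 of 32 (12.9% and 1.64%). The median log2 ratio of the members was 1.29 in H with C and 0.67 in HH with CC, beside 0.25 and 0.29 over all genes.

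To use the spread between libraries, edgeR's quasi-likelihood test was fitted to summed counts of a class with the libraries of 1 diet state as replicates: chow (C, CC, CCC), obese (H, HH) and WL (HC, HHC). Libraries of a state differ in age and diet duration, both obese libraries are in set S075 and both WL libraries in S019, and both contrasts share the chow libraries. In progenitor-like nuclei 35 members were tested. Of these, 10 rose in obesity and 4 fell at an adjusted p of 0.05 (Benjamini-Hochberg over all 15290 genes), against 9.32% of all genes higher and 5.75% lower, and the median log2 change was 0.47 for the members and −0.02 for all genes. By family, 5 of 9 tested fibrillar chains rose and none fell, 3 of 6 basement membrane chains fell and none rose, and of 5 tested beaded filament chains 2 rose and 1 fell. One short chain, 1 FACIT chain and 1 multiplexin rose. With sequencing set as a term in the fit none of the 14 calls was kept (adjusted p 0.0503 to 0.219), all 14 directions were, and calls over all genes went from 2304 to 13 (0.0131% of all genes higher and 0.0719% lower). Leaving out H kept 1 of these calls (Col8a1), and leaving out HH kept 5 (Col1a1, Col3a1, Col8a1, Col18a1 and Col24a1).

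**Figure D3:**
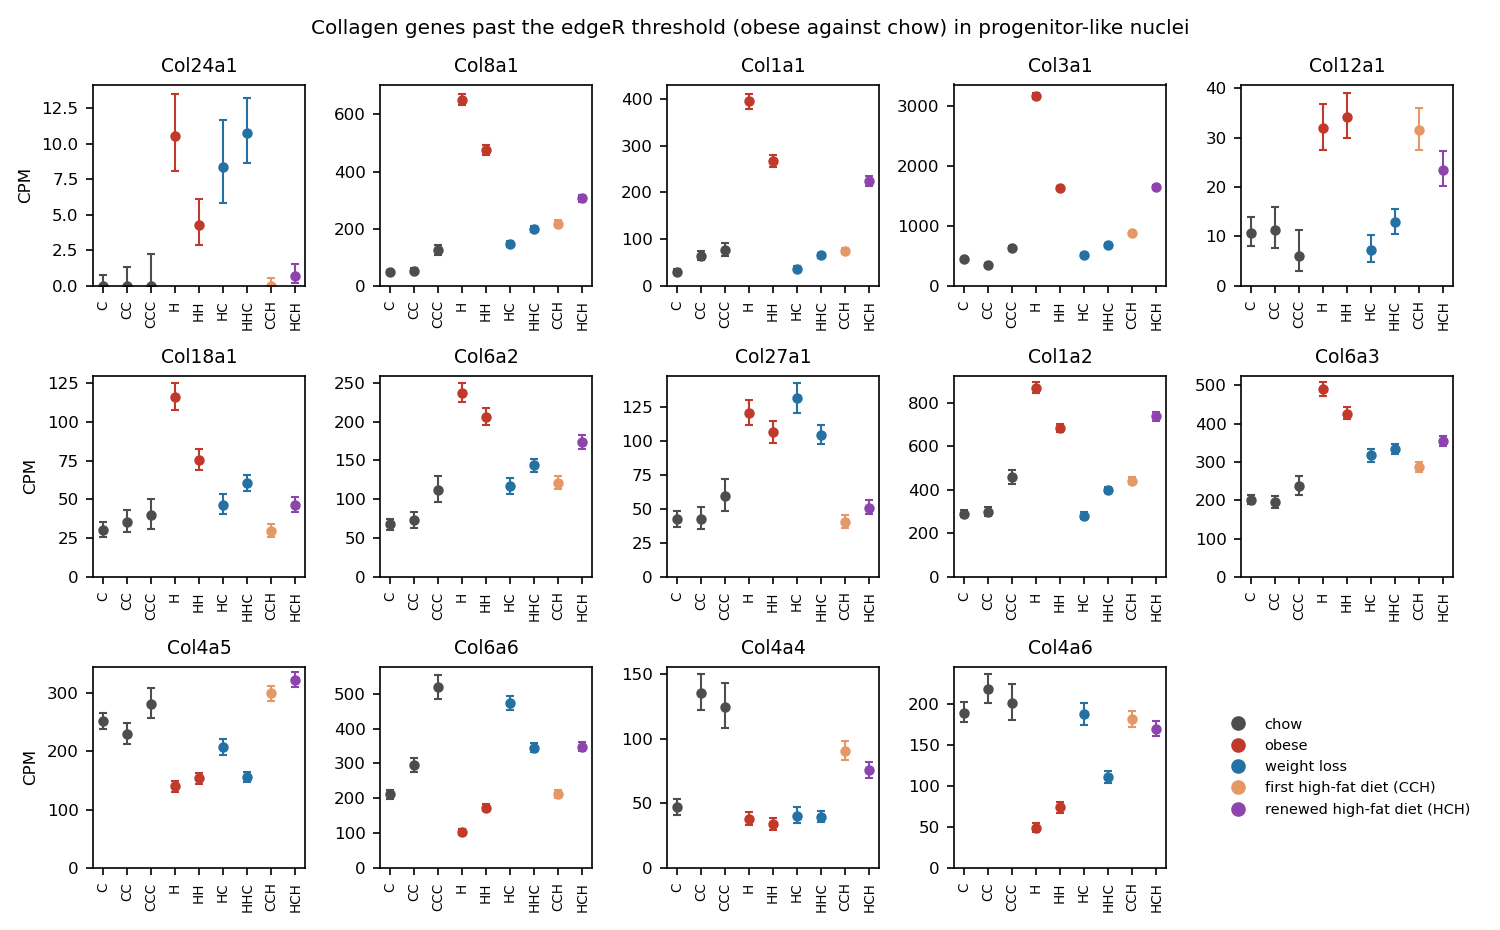
CPM in progenitor-like nuclei of each library for the 14 collagen chain genes that passed edgeR's test between obese and chow libraries, coloured by diet state, with exact Poisson 95% intervals. For 10 chains H and HH lie above all 3 chow libraries and for 4 below them, and HC and HHC also lie above all 3 chow libraries for Col27a1, Col24a1, Col8a1, Col6a3, Col6a2 and Col18a1, though Col18a1 in HC is at the level of lymphocyte-like nuclei (44.2 CPM, 9 UMIs). Levels are shown without background subtracted.

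Type III and type I chains make up the bulk of interstitial fibres. Col3a1, the only chain of the type III trimer, stood at 446, 350 and 628 CPM in C, CC and CCC, 3160 in H and 1631 in HH. After WL it was 520 in HC and 686 in HHC, and it was 875 in CCH and 1644 in HCH. The obese libraries did not overlap with chow, H was 7.09-fold above C (6.78 to 7.41) within the same sequencing set, and edgeR's log2 change was 2.12 (SE 0.31, adjusted p = 0.0101). In H a single APC-like cluster of 1466 nuclei held 54.1% of all Col3a1 UMIs of the library. Lymphocyte-like nuclei stood at 533 CPM of Col3a1 in H and at 904 in HCH, which is 16.9% and 55.0% of the progenitor level.

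Col1a1, the chain present in duplicate in the common type I trimer, had 30.0, 63.4 and 76.3 CPM in the chow libraries, 395 in H and 267 in HH, then 36.2 in HC and 65.2 in HHC, with 73.9 in CCH and 224 in HCH. Its partner Col1a2 had 290, 298 and 457 CPM in chow, 869 and 684 in H and HH, 281 and 399 in HC and HHC, and 442 and 737 in CCH and HCH. Both were above chow in both obese libraries and within or below the chow range after WL. The log2 changes in edgeR were 2.35 (SE 0.37, adjusted p = 0.0117) for Col1a1 and 0.94 (SE 0.23, adjusted p = 0.0327) for Col1a2. The ratio of Col1a1 to Col1a2 CPM, over genes of different length, was 0.103, 0.213 and 0.167 in chow, 0.455 in H and 0.391 in HH, 0.129 and 0.163 after WL, 0.167 in CCH and 0.305 in HCH. Col1a1 in lymphocyte-like nuclei was 201 CPM in HCH, 89.4% of the progenitor level, and 37.0 CPM in C, above the progenitor level there. In CPM, the progenitor levels of Col1a1 in HCH and C are thus close to those of lymphocyte-like nuclei, while lymphocyte-like nuclei of H held 95.7 CPM beside 395 in progenitors. T or NK-like and B cell-like nuclei of HCH were shallower than progenitors (medians of 1607.5 and 1803.5 UMIs beside 3181). The part of depth in this comparison was not tested.

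Of the type V chains, which start and limit fibril growth, Col5a2 was the second most counted member in progenitor-like nuclei. It had 922, 528 and 715 CPM in chow, 1351 in H and 1001 in HH, then 656 in HC and 718 in HHC, with 1001 in CCH and 1016 in HCH. The obese values lay above chow but by a small margin, and the log2 change of 0.48 did not pass in edgeR (SE 0.26, adjusted p = 0.23). The ratio of Col3a1 to Col5a2 CPM, whose genes are neighbours on chromosome 1, was 0.484 to 0.879 in chow, 2.34 in H and 1.63 in HH, and 0.792 to 1.62 in the other 4 libraries.

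Col27a1, a fibrillar collagen known from cartilage, was 1 of the 2 chains called in both contrasts. It stood at 42.3, 42.6 and 59.2 CPM in chow, 121 in H and 106 in HH, then 131 in HC and 104 in HHC, with 40.4 in CCH and 50.8 in HCH. All 4 libraries of the obese and WL states were above chow, and both libraries with 4 weeks of HFD were near it. In edgeR the log2 change was 1.03 in obesity (SE 0.23, adjusted p = 0.0264) and 1.25 after WL (SE 0.23, adjusted p = 0.0462). The WL call was lost when any 1 library was left out. HC and CC, which share age and sequencing set, differed 3.08-fold (2.52 to 3.79), and HHC and CCC 1.76-fold (1.42 to 2.19). An APC-like cluster led by Gpm6b held 48.4% of the Col27a1 UMIs of HC, at 188 CPM, and 1 led by Bmper held 28.6% of those of HHC, at 208 CPM. Lymphocyte-like nuclei held 49.2 CPM in HC and 11.7 in HHC.

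Col24a1, another minor fibrillar chain, was far rarer. Its progenitor level was 0 in C, CC, CCC and CCH, 10.5 CPM in H and 4.28 in HH, 8.38 after WL in HC and 10.7 in HHC, and 0.656 in HCH. With a floor of 3 counts per library, H was at least 17.7-fold above C, HH at least 3.92-fold above CC, HC at least 7.67-fold above CC and HHC at least 5.87-fold above CCC, and edgeR's adjusted p was 0.0127 in obesity and 0.0267 after WL. The call in obesity was lost with sequencing set as a term (adjusted p = 0.072) and without H, and the call after WL was lost with the set term (adjusted p = 0.115), with no upper gene limit and without C, CCC or HHC. A UMI was seen in 23 of 2018 progenitor-like nuclei in H (1.14%), 21 of 3321 in HH (0.632%), 20 of 1410 in HC (1.42%), 51 of 2463 in HHC (2.07%) and 2 of 2245 in HCH (0.0891%). In C 0 of 1983 allows up to 0.151%, in CC 0.334%, in CCC 0.459% and in CCH 0.160%, limits on nuclei with a UMI and not on nuclei that express the gene. T or NK-like nuclei, which should lack it, showed 0 of 124 in H (up to 2.42%), 0.738% in HHC and 1.12% (4 of 357) in HH, where the median nucleus had 1204 UMIs beside 1798 in progenitors. Of the B cell-like nuclei, 1 of 368 held a UMI in HH (0.272%), and over both classes lymphocyte-like nuclei of HH held 6.91 CPM, above the 4.28 of progenitors. HC had no T or NK-like cluster, and 1 of its 97 B cell-like nuclei (1.03%) held a UMI. Macrophage-like nuclei held 20.7 CPM in HC, 19.99 in HHC and 11.1 in HH, more than progenitors in each, and 262 of the 476 Col24a1 UMIs of HH came from 1 unnamed cluster of 44 nuclei led by Chl1 and Ncam1.

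Col8a1 forms the short-chain network of vessel walls and other subendothelial matrix, and showed the largest fitted change among called chains other than Col24a1. Its progenitor level was 47.3, 52.1 and 125 CPM in chow, 652 in H and 475 in HH, then 146 in HC and 199 in HHC, with 217 in CCH and 306 in HCH. Without background subtracted, every library with any HFD exposure was above all 3 chow libraries. H was 13.8-fold above C (12.1 to 15.8) and HH 9.11-fold above CC (7.70 to 10.8), and the log2 change was 2.73 in edgeR (SE 0.37, adjusted p = 0.0081). This call was kept in 5 of 5 fits that left out a library. After WL the ratios were 2.80 for HC with CC (2.33 to 3.39) and 1.60 for HHC with CCC (1.38 to 1.86), and the log2 change of 1.16 did not pass (adjusted p = 0.191). Lymphocyte-like nuclei had 6.38 CPM in H and 20.7 in HH, 0.978% and 4.37% of the progenitor level. They held 49.2 CPM in HC (33.7%), 26.9 in CC (51.6%) and 19.3 in CCC (15.5%), so the place of HC above CCC depends on background. An APC-like cluster of 371 nuclei, led by Csmd1, Meg3 and Fgf10, had 1813 CPM and 43.0% of all Col8a1 UMIs of HH.

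**Figure D4:**
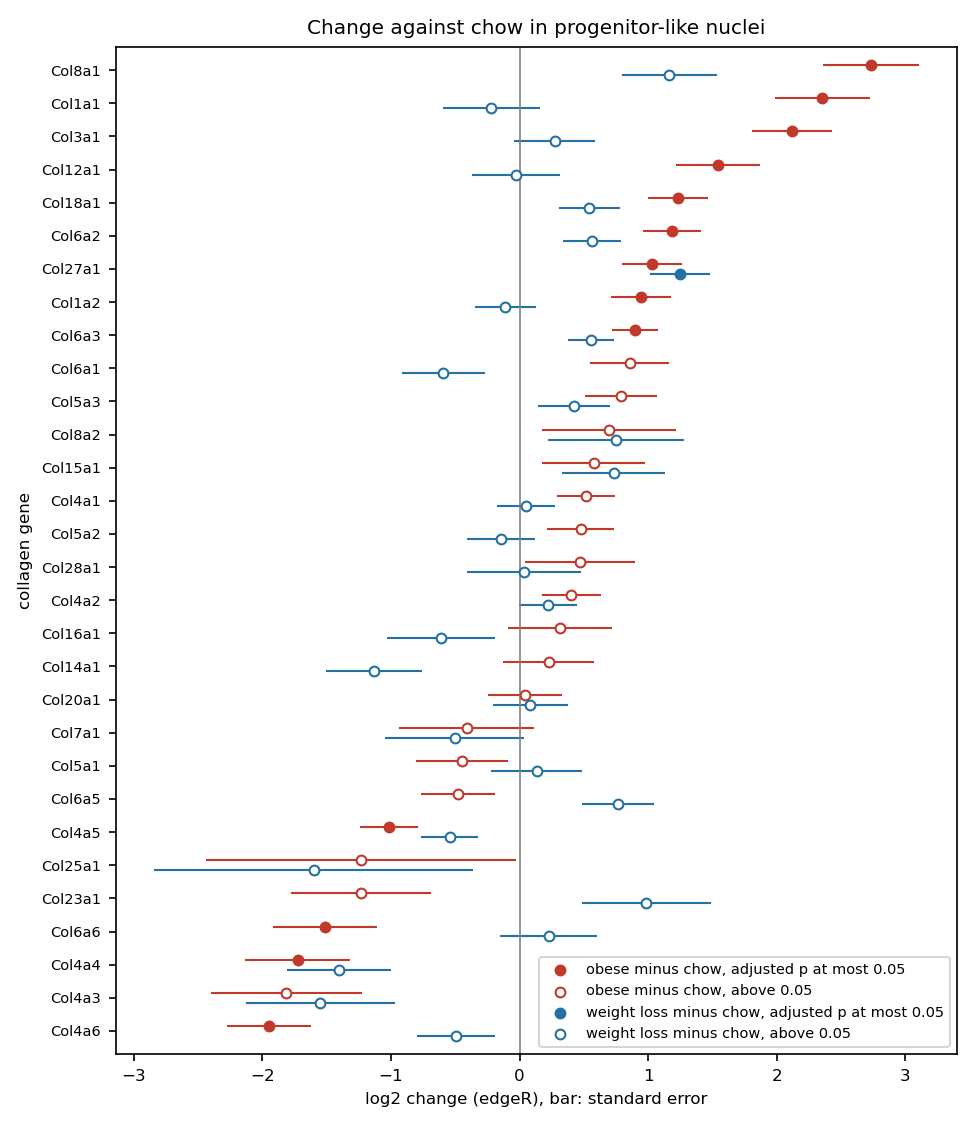
Log2 change with its SE in edgeR for collagen chain genes with at least 100 UMIs in progenitor-like nuclei, obese against chow and weight loss against chow, filled where the adjusted p is at most 0.05, with Col24a1 left out because chow libraries were at 0. Col8a1 (2.73), Col1a1 (2.35) and Col3a1 (2.12) lie farthest above 0 in obesity and Col4a6 (−1.95) is the lowest called chain, and after weight loss Col27a1 (1.25) is the only filled point.

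Basement membrane chains went the other way or did not pass. Type IV is built from Col4a1 and Col4a2 almost everywhere, while Col4a3, Col4a4, Col4a5 and Col4a6 occur in specialised membranes. Col4a6 had 190, 218 and 202 CPM in chow, 49.0 in H and 73.8 in HH, then 188 in HC and 111 in HHC, with 182 in CCH and 170 in HCH. H, HH and HHC were clearly under chow, HC, CCH and HCH slightly so, and the log2 change in obesity was −1.95 (SE 0.33, adjusted p = 0.0127). Of the HC value, 179 UMIs came from 1 APC-like cluster of 41 nuclei led by Lgr5 and Rorb with 1673 CPM of Col4a6, which carried 5 progenitor markers and 3 of smooth muscle. Col4a5, which starts beside Col4a6 and is read in the opposite direction, had 252, 231 and 282 CPM in chow and 140 and 154 in the obese libraries, followed by 207 in HC and 156 in HHC, with 300 in CCH and 323 in HCH. It fell by 1.02 on the log2 scale in obesity (SE 0.23, adjusted p = 0.0256), and both WL libraries were also below chow. The ratio of Col4a5 to Col4a6 CPM was 1.06 to 1.40 in chow, 2.86 in H, 2.08 in HH and 1.10 to 1.90 in the other libraries.

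Col4a4 stood apart within chow. It had 47.1 CPM in C but 136 in CC and 125 in CCC, with 37.7 in H and 33.8 in HH, then 40.5 in HC and 39.7 in HHC, and 90.8 in CCH and 75.6 in HCH. Of the CC value, 177 UMIs came from 1 APC-like cluster of 53 nuclei led by Hhip and Kcnd3, with 1040 CPM of Col4a4. All obese and WL libraries were below chow, but H differed from C of the same age and set by little (ratio 0.802, 0.665 to 0.967, which turned to a log2 ratio of 0.27 with the lymphocyte-like level subtracted), whereas HC and CC of the same set differed more (0.299, 0.247 to 0.359). The subtraction in H and C rests on 1 and 7 lymphocyte-like UMIs. The log2 change was −1.73 in obesity (SE 0.41, adjusted p = 0.0294) and −1.41 after WL, which did not pass (adjusted p = 0.158). With sequencing set as a term the obese value moved to −0.66 (adjusted p = 0.112). The common chains did not pass: Col4a1 had 433, 383 and 373 CPM in chow, 786 in H and 543 in HH, then 457 in HC and 401 in HHC, with 354 in CCH and 502 in HCH (log2 change in obesity 0.52, adjusted p = 0.146 in edgeR), and Col4a2 had a log2 change of 0.40 (adjusted p = 0.246). The ratio of Col4a1 to Col4a2 CPM kept to 1.27 to 1.70 over all 9 libraries.

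Type VI collagen is a trimer of Col6a1, Col6a2 and another chain, such as Col6a3, Col6a5 or Col6a6. The classical chains were higher in obesity. Col6a3, the source of the endotrophin fragment, had 201, 195 and 238 CPM in chow, 491 in H and 426 in HH, then 317 in HC and 334 in HHC, with 287 in CCH and 355 in HCH, so that all 6 libraries with HFD exposure exceeded chow. Col6a2 had 67.5, 72.9 and 112 CPM in chow, 237 and 206 in H and HH, 116 and 143 in HC and HHC, and 121 and 174 in CCH and HCH, a difference that turned with the lymphocyte-like level subtracted (log2 ratio −0.046). Both passed in obesity in edgeR, with log2 changes of 0.90 for Col6a3 (SE 0.18, adjusted p = 0.0188) and 1.19 for Col6a2 (SE 0.23, adjusted p = 0.0179), and Col6a1 missed at 0.86 (adjusted p = 0.0905). Lymphocyte-like nuclei held 39.3 CPM of Col6a2 in HC (33.8% of the progenitor level), 44.8 in CC (61.5%) and 19.3 in CCC (17.2%). The place of Col6a2 in HC above CCC thus depends on background.

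The alternative chains Col6a5 and Col6a6 did not rise in obesity. Col6a6 had 211, 294 and 519 CPM in chow, 103 in H and 172 in HH, then 473 in HC and 345 in HHC, with 212 in CCH and 348 in HCH, and its log2 change in obesity was −1.51 (SE 0.40, adjusted p = 0.039). With sequencing set as a term in edgeR this moved to −0.88 (adjusted p = 0.219). Col6a5 had 217, 326 and 396 CPM in chow and 211 and 309 in the obese libraries, against 588 in HC and 516 in HHC, 181 in CCH and 363 in HCH. It did not pass in obesity (log2 change −0.48, adjusted p = 0.27), and after WL it lay above all chow libraries without passing (0.77, adjusted p = 0.248). HC exceeded CC 1.80-fold (1.67 to 1.95), and HCH exceeded CCH 2.01-fold (1.88 to 2.15). These genes lie side by side on chromosome 9, and their CPM ratio, Col6a5 to Col6a6, was 2.06 in H, 1.79 in HH and 0.762 to 1.49 in the others.

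Among chains bound to fibrils or rich in glycans, Col12a1, a FACIT chain of tendon and stressed tissue, had 10.7, 11.3 and 6.11 CPM in chow, 32.0 in H and 34.3 in HH, then 7.19 in HC and 12.9 in HHC, with 31.5 in CCH and 23.5 in HCH. The 4 libraries on HFD at collection were above the 5 others. Col18a1, the source of endostatin, had 30.2, 35.3 and 39.7 CPM in chow, 116 and 75.5 in H and HH, 46.7 and 60.5 in HC and HHC, and 29.8 and 46.5 in CCH and HCH. Lymphocyte-like nuclei of HC held 44.2 CPM of Col18a1 (9 UMIs in 97 nuclei), 94.7% of the progenitor level. Those of CC held 76.1% (6 UMIs in 100 nuclei). The log2 ratio of HC with CC turned from 0.40 to −1.78 with the lymphocyte-like level subtracted. With so few UMIs the background is uncertain, and the HC value cannot be told apart from it. Of Col12a1 lymphocyte-like nuclei held 7.73 CPM in CCC (2 UMIs), above the progenitor level there. The log2 changes in obesity were 1.54 for Col12a1 (SE 0.33, adjusted p = 0.0227) and 1.23 for Col18a1 (SE 0.23, adjusted p = 0.0176). Col14a1 had 444, 167 and 274 CPM in chow, 456 in H and 356 in HH, then 128 in HC and 157 in HHC, with 653 in CCH and 402 in HCH. It did not pass in obesity (log2 change 0.23, adjusted p = 0.685) or after WL (−1.13, adjusted p = 0.203), where both libraries were below chow. FIP-like nuclei, where its level was highest, made up 726 of 1983 progenitor-like nuclei in C and 687 of 1878 in CCH, but 179 of 1410 in HC and 318 of 2463 in HHC. They made up 190 of 899 in CC, 129 of 654 in CCC, 399 of 2018 in H, 614 of 3321 in HH and 497 of 2245 in HCH.

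In the WL contrast of progenitor-like nuclei, 2 members rose, Col27a1 and Col24a1 (0.961% of all genes were higher), and none fell (0.124%). In all, 12 of 35 members (34.3%) and 14.4% of all genes had an unadjusted p under 0.05. The median log2 change was 0.08 for the members and −0.03 for all genes. With sequencing set as a term no member passed, and no gene of the table did either. HC with CC and HHC with CCC are pairs of the same age and set, and a fit of these 4 libraries with the pair as a block, added after the data were seen, leaves 1 residual degree of freedom. It called more genes in general, 1.8% of them higher and 0.988% lower, and 3 of 31 tested members, Col24a1 higher (adjusted p = 0.0238 in edgeR) and Col4a3 (adjusted p = 0.0209) and Col4a4 (log2 change −1.74, adjusted p = 0.0071) lower, and Col27a1 missed (1.17, adjusted p = 0.0553). Col4a3 had 82.7 CPM in CC and 61.1 in CCC against 13.2 in HC and 24.8 in HHC. Of the CC UMIs, 123 of Col4a3 (723 CPM) and 177 of Col4a4 (1040 CPM) came from 1 APC-like cluster of 53 nuclei. It was led by Hhip and Kcnd3, and its part in these calls was not tested.

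**Figure D5:**
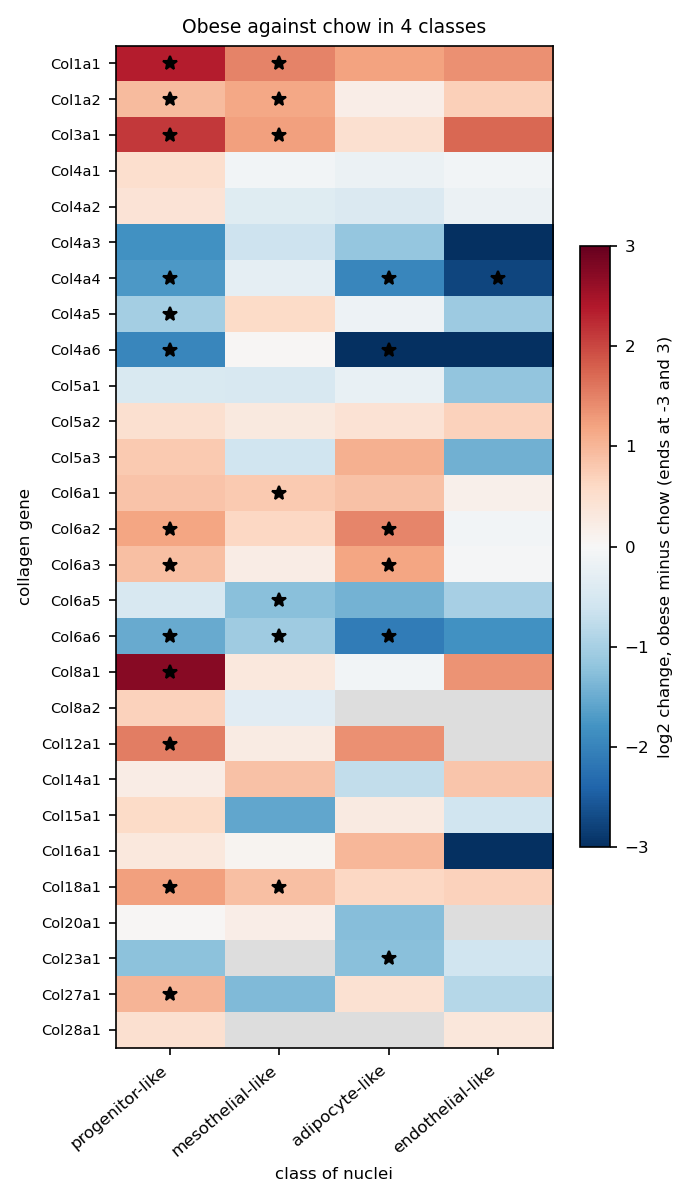
Log2 change between obese and chow libraries in edgeR for collagen chain genes (rows) in progenitor-, adipocyte-, mesothelial- and endothelial-like nuclei (columns), with a star where the adjusted p is at most 0.05, colours ending at −3 and 3 and grey where a gene was not tested or had under 100 UMIs. Col1a1, Col1a2 and Col3a1 carry stars in progenitor-like and mesothelial-like columns, and Col4a4 carries one in all but the mesothelial-like column.

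Mesothelial-like nuclei also had higher levels of Col1a1, Col1a2 and Col3a1 in obesity. Of 28 tested members 5 rose in obesity (8.16% of all genes) and 2 fell (3.94%), with a median log2 change of 0.07 for the members and 0.02 for all genes. Col3a1 had 1014, 1000 and 1464 CPM in C, CC and CCC, 3132 in H and 2443 in HH, 1502 in HC and 1670 in HHC, and 1738 and 2695 in CCH and HCH, with every HFD-exposed library above chow. Its log2 change was 1.23 (SE 0.20, adjusted p = 0.006 in edgeR), beside 1.48 for Col1a1 (adjusted p = 0.00668), 1.16 for Col1a2 (adjusted p = 0.00898), 0.91 for Col18a1 (adjusted p = 0.0329) and 0.79 for Col6a1 (adjusted p = 0.0433). Col6a5 (−1.24, adjusted p = 0.00917) and Col6a6 (−1.06, adjusted p = 0.0281) fell. Lymphocyte-like nuclei were also higher in H and HH than in chow for Col3a1, Col1a1, Col1a2 and Col6a1. They held 104 to 125 CPM of Col3a1 in chow, 533 in H and 450 in HH, and 22.4 to 37.0 CPM of Col1a1 in chow, 95.7 in H and 90.8 in HH. Their Col1a2 level was 58.1 to 108 CPM in chow, 175 in H and 179 in HH, and their Col6a1 level 13.2 to 42.5 CPM in chow, 54.2 in H and 69.1 in HH. Their Col18a1 level, 22.3 CPM in H and 18.2 in HH, lay within the 5.28 to 26.9 of chow. For Col6a6 they held 21.1 to 50.2 CPM in chow, 0 in H and 19.9 in HH. For Col6a5 they held 31.7 to 42.5 CPM in chow, 15.9 in H and 42.4 in HH. Mesothelial-like nuclei were above them in 9 of 9 libraries for each of the 7 called chains, and the part of free RNA in these changes was not tested. Col5a2 (329 to 870 CPM), Col4a5 (259 to 537) and Col8a1 (135 to 421) were also abundant in mesothelial-like nuclei, and each was highest in CCH or HCH. Unlike in progenitors, Col4a6 stayed close to chow in H and HH, at 390, 396 and 381 CPM in chow and 444 and 388 in obesity (log2 change 0.05, adjusted p = 0.907), although the difference between the classes was not tested. Leaving out H removed all 7 calls, leaving out HH left 3, and with sequencing set as a term 3 members passed, Col1a1 and Col3a1 higher (2.77% of all genes) and Col6a5 lower (0.934%). With DESeq2 and with no upper gene limit the calls of Col6a1 and Col18a1 were lost, and that of Col6a1 also with size factors and without deep nuclei. The multiplexin Col15a1 (30.0 to 102 CPM in chow, 23.2 in H and 24.5 in HH) and Col27a1 (18.3 to 25.5 CPM in chow, 4.46 in H and 10.8 in HH) were below chow in both obese libraries without passing. Col15a1 was above the lymphocyte-like level, 35.1 CPM in H and 32.8 in HH, in only 2 of 9 libraries and is read as background, and Col27a1 was above it in 6. After WL no member passed (0.569% of all genes were higher and 0.0764% lower), 3 of 28 (10.7%) had an unadjusted p under 0.05 beside 12.3% of all genes, DESeq2 called 0, and with the age pairs as a block 0 passed (0.602% of all genes higher and 1.17% lower).

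In adipocyte-like nuclei the chains with the highest CPM were the basement membrane chains Col4a1 (275 to 667 over the libraries) and Col4a2 (213 to 539) and the multiplexin Col15a1 (87.4 to 422). All of these were lowest in C. Of 29 tested members 2 rose in obesity (11.6% of all genes) and 4 fell (7.61%). An unadjusted p under 0.05 was found for 8 members (27.6%), a smaller share than the 37.3% of all genes. Col6a3 had 29.8, 29.8 and 56.3 CPM in chow, 84.4 in H and 117 in HH, then 86.9 in HC and 65.8 in HHC, with 48.4 in CCH and 103 in HCH, a log2 change of 1.19 (SE 0.32, adjusted p = 0.0339 in edgeR). Col6a2 had 10.1, 18.7 and 32.8 CPM in chow and 79.5 and 50.4 in obesity (log2 change 1.45, adjusted p = 0.0397). Among the chains that fell, Col4a6 had 17.7, 14.4 and 15.3 CPM in chow, 0 in H and 3.49 in HH (adjusted p = 0.0237), and Col4a4 had 11.6, 16.4 and 25.5 CPM in chow and 4.89 and 5.49 in obesity (log2 change −1.95, adjusted p = 0.0188). Col6a6 (−2.10, adjusted p = 0.0461) and Col23a1 (−1.25, adjusted p = 0.0475) were the others. With sequencing set as a term, 4 of these 6 calls were lost, Col6a3 (adjusted p = 0.0635), Col4a4 (0.0642), Col6a6 (0.18) and Col23a1 (0.223), and 5 members were called, Col5a3, Col6a1, Col6a2 and Col18a1 higher (5.51% of all genes) and Col4a6 lower (5.49%). With no upper gene limit only Col6a3 and Col4a6 of the 6 were called, and without deep nuclei Col4a4, Col6a3 and Col4a6. Lymphocyte-like nuclei changed along with several of these chains. Their Col6a3 level was 19.3 to 49.3 CPM in chow, 63.8 in H and 79.5 in HH, and their Col6a2 level was 5.28 to 44.8 CPM in chow, 44.7 in H and 55.3 in HH. Their Col4a6 level was 26.9 to 60.8 CPM in chow, 0 in H and 17.3 in HH, and their Col4a4 level was 11.6 to 49.3 CPM in chow, 3.19 in H and 6.91 in HH. Their Col6a6 level was 21.1 to 50.2 CPM in chow, 0 in H and 19.9 in HH. Adipocyte-like nuclei were above them in 6 of 9 libraries for Col6a3, 8 for Col23a1, 4 for Col6a2 and Col4a4 and 1 for Col4a6 and Col6a6, whose levels are read as background, and the part of free RNA in these changes was not tested. Col5a3, above the lymphocyte-like level in all 9, lay above chow in both obese libraries, at 52.2, 143 and 180 CPM in chow and 366 and 240 in obesity, and did not pass (log2 change 1.06, adjusted p = 0.0921). Col1a1 (8.36, 10.5 and 20.1 CPM in chow, 28.1 in H and 39.4 in HH) and Col12a1 (3.22, 3.08 and 18.4 CPM in chow, 24.5 in H and 21.5 in HH) were likewise above chow without passing, and both were highest in HCH, at 121 and 42.9 CPM. Col3a1, also highest in HCH at 512 CPM, ranged from 82.1 to 236 elsewhere. In HCH the lymphocyte-like nuclei held 201 CPM of Col1a1 and 904 CPM of Col3a1, more than the adipocyte-like nuclei. Their Col1a1 level was 22.4 to 37.0 CPM in chow, 95.7 in H and 90.8 in HH. These also lay above the adipocyte-like values of Col1a1, which are read as background. Col5a2 ranged from 89.9 to 201 over all libraries. H and HH held 184 and 468 adipocyte-like nuclei, fewer than the 760 to 2989 of the chow libraries, and leaving out CC, H or HH left 0 calls. After WL no member passed (0.141% of all genes were higher and 0.0352% lower), 4 of 29 (13.8%) had an unadjusted p under 0.05 beside 10.9% of all genes, and DESeq2 called 1. Col4a4 was again low there, at 4.19 CPM in HC and 4.50 in HHC (adjusted p = 0.109), and it was the 1 member of 28 called with the age pairs as a block (log2 change −2.16, adjusted p = 0.0314), where 0.866% of all genes were called lower and 1.23% higher.

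In endothelial-like nuclei 1 of 26 tested members passed in obesity. None rose (2.01% of all genes) and Col4a4 fell (0.993%), from 15.2, 20.3 and 42.5 CPM in chow to 4.38 in H and 3.78 in HH (log2 change −2.76, SE 0.59, adjusted p = 0.0473 in edgeR), and 11 members (42.3%) had an unadjusted p under 0.05 beside 18.2% of all genes. Lymphocyte-like nuclei held 18.5, 49.3 and 11.6 CPM of Col4a4 in chow, 3.19 in H and 6.91 in HH, and endothelial-like nuclei were above them in 5 of 9 libraries. The part of free RNA in this call was not tested. DESeq2 called 4. With sequencing set as a term Col4a4 was not called (adjusted p = 0.106), and Col1a1, Col1a2, Col3a1 and Col6a3 were, all higher (1.37% of all genes were higher and 0.36% lower). Col4a4 was also not called with a stricter gate, with no upper gene limit or without deep nuclei. Col8a1, which arterial endothelium is known to make, had 353, 170 and 101 CPM in chow, 698 in H, 478 in HH, 218 and 219 in HC and HHC, and 558 and 525 in CCH and HCH. Within S075 each HFD library was above C, and within S019 both WL libraries were above CC and CCC, and it did not pass in obesity (log2 change 1.36, adjusted p = 0.191). Col3a1 had 78.9, 133 and 252 CPM in chow, 627 in H and 462 in HH (1.72, adjusted p = 0.0726), and Col1a1 had 10.7, 36.8 and 62.6 CPM in chow against 96.4 and 105 in obesity (1.37, adjusted p = 0.225). Lymphocyte-like nuclei moved with both, at 104 to 125 CPM of Col3a1 in chow, 533 in H and 450 in HH, and 22.4 to 37.0 CPM of Col1a1 in chow, 95.7 in H and 90.8 in HH, close to the endothelial values in H and HH, and the part of free RNA was not tested. Several rare chains were below chow in both obese libraries without passing. Col4a6 had 22.3, 33.0 and 25.6 CPM in chow, 0 in H and 5.67 in HH (adjusted p = 0.0524), and Col4a3 had 12.5, 20.3 and 31.0 CPM in chow, 0 in H and 1.89 in HH (adjusted p = 0.0572). Col16a1, a FACIT chain, had 4.90, 5.08 and 36.5 CPM in chow and 1.46 and 0.945 in obesity. In lymphocyte-like nuclei these chains were low in the same libraries, with Col4a6 at 26.9 to 60.8 CPM in chow, 0 in H and 17.3 in HH, Col4a3 at 7.92 to 17.9 CPM in chow, 0 in H and 3.46 in HH, and Col16a1 at 10.6 to 23.2 CPM in chow, 0 in H and 4.32 in HH. Endothelial-like nuclei were above them in 2 of 9 libraries for Col4a6, 6 for Col4a3 and 4 for Col16a1. After WL, Col27a1 (24.5 CPM in HC and 28.4 in HHC, against 3.57 to 24.0 in chow) and Col6a5 (116 and 97.6, against 32.5 to 83.8) were above chow and did not pass, beside 49.2 CPM of Col27a1 and 98.3 CPM of Col6a5 in lymphocyte-like nuclei of HC, and 11.7 and 60.3 CPM in those of HHC. Among the abundant chains, Col4a1 ranged from 222 to 535 CPM, Col4a2 from 143 to 374, Col5a2 from 197 to 591 and Col1a2 from 45.0 to 349 over the libraries. Most CCC endothelial-like nuclei, 858 nuclei, were in 1 cluster that also carried 8 adipocyte markers, and the main CC cluster carried 7 smooth muscle markers. In HHC, 100 of the 590 endothelial-like nuclei were in a cluster led by Pcdh15, Sntg1 and Tmem108. Igkc and Ighm were among its leading genes, and no endothelial marker was. It enters all HHC values of this class. Leaving out C gave 10 calls and leaving out CC, H or HH gave 0. After WL no member and no gene passed (0.0% in either direction), 2 members (7.69%) had an unadjusted p under 0.05 beside 5.92% of all genes, and DESeq2 called 0. With the age pairs as a block 1 of 26 members was called there, Col23a1 (log2 change 1.26, adjusted p = 0.038), beside 1.32% of all genes called higher and 1.31% lower.

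HCH with CCH compares a second with a first 4 weeks of HFD, in mice of the same age and libraries of the same set. In progenitor-like nuclei the ratios were 3.04 for Col1a1 (2.75 to 3.36), 1.88 for Col3a1 (1.82 to 1.94), 1.67 for Col1a2 (1.59 to 1.74), 1.41 for Col8a1 (1.32 to 1.5) and 0.615 for Col14a1 (0.587 to 0.644). The median log2 ratio over 32 members was 0.32, beside 0.11 for all genes. Lymphocyte-like nuclei of HCH held 201 CPM of Col1a1 and 904 of Col3a1, against 32.0 and 212 in CCH, and 406 of Col1a2 against 118. After the lymphocyte level was subtracted in CPM, Col1a1 was lower in HCH (log2 ratio −0.81), the log2 ratio was 0.16 for Col3a1 and 0.030 for Col1a2, and the log2 ratio of the summed collagen went from 0.39 to 0.07. T or NK-like and B cell-like nuclei were shallower than progenitors (medians of 1607.5 and 1803.5 UMIs beside 3181 in HCH, 1410.5 and 1585.5 beside 3505 in CCH). Subtraction of CPM takes no account of depth and may take off too much free RNA. The sign for Col1a1 with depth taken into account was not tested. The Col8a1 level of lymphocyte-like nuclei was 10.3 CPM in HCH and 18.5 in CCH, beside 306 and 217 in progenitors.

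Newly made chains are hydroxylated, chaperoned, exported, trimmed of their propeptides and crosslinked. Of 42 genes listed for these steps and for collagen receptors, 41 were tested in progenitor-like nuclei, where 7 rose and 2 fell in obesity in edgeR (9.32% and 5.75% of all genes), with a median log2 change of 0.15. With sequencing set as a term 0 passed in either direction (smallest adjusted p 0.058, Pcolce). Of 11 tested hydroxylase genes 3 rose, the lysyl hydroxylases Plod1, Plod2 and Plod3, and of 8 genes for glycosyltransferases, chaperones and export 2 rose, the prolyl isomerases Ppib and Fkbp14. Ppib had 24.0, 17.1 and 26.9 CPM in chow, 101 in H and 135 in HH, then 14.1 in HC and 38.5 in HHC, with 26.5 in CCH and 84.5 in HCH (log2 change 2.16, SE 0.35, adjusted p = 0.0123). Pcolce, which speeds removal of the C-terminal propeptide, had 23.2, 23.0 and 39.1 CPM in chow, 141 and 139 in H and HH, 43.1 and 62.2 in HC and HHC, and 32.1 and 68.4 in CCH and HCH (log2 change 2.11, SE 0.25, adjusted p = 0.00616). Plod2 rose by 1.11 on the log2 scale (adjusted p = 0.0287). Tll2, which was listed under propeptide removal, fell by 1.56 (adjusted p = 0.0367 in edgeR) and the fibrillar collagen receptor Ddr2 fell by 0.76 (adjusted p = 0.0359). None of 5 crosslinking genes (the lysyl oxidases) passed in either direction.

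Lair1, an inhibitory collagen receptor of immune cells, was the only one of these genes to pass after WL. In progenitor-like nuclei it had 3.57, 4.37 and 4.89 CPM in chow, 18.2 in H and 14.9 in HH, then 17.5 in HC and 35.7 in HHC, with 3.86 in CCH and 9.45 in HCH. The log2 changes in edgeR were 1.75 in obesity (SE 0.34, adjusted p = 0.0187) and 2.57 after WL (SE 0.34, adjusted p = 0.0158). Both calls were lost with sequencing set as a term (adjusted p = 0.0795 and 0.11), and the WL call was kept with the age pairs as a block (adjusted p = 0.0212). It is known as a gene of leukocytes, and macrophage-like nuclei numbered 466 to 1710 in the chow libraries, 5860 in H and 5774 in HH, then 1313 in HC and 2833 in HHC. The part of their free RNA in this result was not tested.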

How the data were processed

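The authors made the deposited counts, raw UMI counts per gene and nucleus barcode, with Cell Ranger 6.1.2 on mm10 with intronic reads included, and the submitters' processing notes also name Seurat 4.1.0. The gene rule, gene lists and tests were chosen with earlier results of these data known. Kept nuclei had 500 to 3000 genes and no more than 40000 UMIs, following the methods of the study. Each library was clustered on its own (2000 variable genes, 30 principal components, 20 neighbours, Leiden at resolution 1, leidenalg 0.10.2, Python 3.11.15). A marker counted when at least 10% of the nuclei of a cluster had it and its CPM was at least 2 times the median over the clusters of the library. A cluster took the class with the most such markers, at least 3 markers and 2 more than the next class. These limits were set after the data were examined, no doublet caller was run, and nuclei with over 2 times the median UMIs of their class were left out in an added alternative. CPM leaves out mitochondrial genes and Malat1. Intervals are exact Poisson and exact conditional at 95%, for counting error only.

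The edgeR fit (edgeR 4.0.16, R 4.3.3, TMM factors, filterByExpr, quasi-likelihood, Benjamini-Hochberg over all genes) used 7 libraries in 4 classes (CCH and HCH left out). Whether libraries of a state vary as separate cohorts of a group would is unknown, so p-values measure the spread between these pools. Only the main fit of progenitor-like nuclei, obese against chow, was tried on simulated counts. These were drawn without an effect of age or sequencing set, so the trial does not bear on those differences. DESeq2 1.42.0, other scalings, filters and gates, sequencing set as a term, age pairs as a block, free RNA subtraction and leaving out a library were alternatives. A member was described if it had at least 100 UMIs in a class and was among the 6 highest, lay outside the chow range in both libraries of a state with a mean log2 difference of at least 1, or passed edgeR (at most 8 per direction), and at most 4 pathway genes per direction were named by size, with the others of a called role named after their values were seen. Lymphocyte-like nuclei are T or NK-like and B cell-like, and their level was compared and subtracted as CPM, without regard to depth per nucleus. Upstream sequences come from RefSeq on GRCm38.p6 and exons from GENCODE vM21.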

Additional observations from a re-analysis of the deposited data

How the results depend on the processing

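The labels give no replicate numbers, and no chow library has the age of HH. For weight loss, HC with CC and HHC with CCC were used as age pairs in a replicate block, chosen after seeing the data. This fit of 4 libraries called 3 members in progenitor-like nuclei (2 in the main fit of 7 libraries). It called 1 in adipocyte-like and 1 in endothelial-like nuclei (0 in the main fit) and 0 in mesothelial-like nuclei (0 in the main fit). Calls over all genes were 375, 273 and 315 with the block in the first 3 classes, against 166, 25 and 0 in the main fit. The 2 fits also differ in libraries and in genes tested, so the change in calls cannot be credited to the block.

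The log2 ratio of summed progenitor collagen moved beyond its counting interval in most alternatives. For H with C it went from 1.25 to 1.37 when nuclei were gated on marker UMIs, 1.19 with no upper limit on genes, 1.02 with TMM factors, 1.00 with DESeq2 size factors, 1.37 with the lymphocyte-like level subtracted as free RNA and 1.28 in APC-like nuclei alone. For HH with CC (0.77) the same gate gave 0.73, no gene limit 0.85, TMM 0.49, size factors 0.51, free RNA subtracted 1.06 and leaving out deep nuclei 0.68. HC with CC (0.33) became 0.29 with the marker UMI gate and 0.53 with free RNA subtracted. HHC with CCC (−0.07) changed sign with the marker UMI gate (0.18) and with no gene limit (0.054), and was −0.19 with TMM, −0.18 with size factors and −0.10 in APC-like nuclei. HCH with CCH (0.39) became 0.44 with no gene limit, 0.29 with TMM, 0.24 with size factors, 0.074 with free RNA subtracted and 0.31 in APC-like nuclei. The cause of these shifts was not tested.

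Of 14 progenitor calls in obesity, 0 were made with sequencing set as a term. Each fit that left out a chow library lost at least 1 of the 14. The 2 calls after weight loss became 10 without the low-count filter, 0 with the set term, 1 without deep nuclei, 1 in APC-like nuclei and 0 to 1 when a library was left out. The 6 adipocyte calls in obesity became 12 without the filter, 2 with no gene limit, 3 without deep nuclei and 0 to 7 when a library was left out, and the 0 after weight loss became 1 with DESeq2 and 2 without the filter. The 7 mesothelial calls became 3 with the set term and 0 to 8 when a library was left out. The number of endothelial calls in obesity went from 1 (Col4a4, itself lost with the set term, the stricter gate, no gene limit and without deep nuclei) to 4 with DESeq2, 3 with size factors, 10 without the filter, 4 with the set term (all higher), 3 with no gene limit, 2 without deep nuclei and 0 to 10 when a library was left out, and the 0 after weight loss became 1 without the filter and 1 with a stricter gate. Leaving out a library gave 0 calls after weight loss in the adipocyte, mesothelial and endothelial classes. The APC-like and deep-nuclei alternatives were chosen after seeing the data.

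Of the gene ratios, 295 values stayed within their interval, 177 moved and 6 reversed: with free RNA subtracted Col4a4 in H with C (0.27), Col18a1 in HC with CC (−1.78), Col1a1 (−0.81) and Col6a2 (−0.046) in HCH with CCH, with the marker UMI gate Col1a2 in HHC with CCC (0.074), and with size factors Col4a5 in HCH with CCH (−0.041). The Col4a4 and Col18a1 reversals rest on 1 to 9 lymphocyte-like UMIs per library. The subtraction takes no account of the lower depth of lymphocyte-like nuclei, and the part of depth in the reversals with free RNA subtracted was not tested.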
